A study of Mus musculus with 6 samples.

Results

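The 10 genes described here supply, or defend the cell against, the peroxidation of membrane lipids: *Acsl4*, *Lpcat3*, *Gpx4*, *Aifm2*, *Slc7a11*, *Gclc*, *Gclm*, *Nfe2l2*, *Hmox1* and *Nqo1*. They were chosen by gene symbol, and all 10 had a row in a matrix of 61880 rows. The matrix gives each assembled stretch of transcription a locus number, and a gene can be split over several rows of its locus. Each gene was therefore read both as the row with its symbol and as the sum of all rows of its locus, and the 10 loci held 17 of the rows.

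Total RNA of mammary epithelial cells, taken from inguinal glands of 6 to 8 week old females, was sequenced in 3 pooled samples (pools) of transgenic *fat-1* mice and 3 of wildtype (WT) mice. Both genotypes were on the FVB/NJ background and were kept for life on the parental diet, a modified AIN93G diet with 10% fat by weight (22% of kcal) from safflower oil, which is rich in *n*-6 PUFA. The *fat-1* mice carry a desaturase gene of *Caenorhabditis elegans* that converts *n*-6 into *n*-3 PUFA throughout the body. No row of the matrix carries it, so the genotype labels could not be checked from the counts. Each sample pooled the glands of 2 to 3 mice, and the oestrous stage was not determined. Before RNA extraction the minced glands were digested for 18 h in collagenase and hyaluronidase.

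In ferroptosis, a form of cell death that depends on iron, polyunsaturated fatty acids in membrane phospholipids are oxidised faster than the cell can repair them. ACSL4 and LPCAT3 place these fatty acids in phospholipids, GPX4 reduces the resulting lipid peroxides with glutathione, and AIFM2 (also called FSP1) regenerates lipid antioxidants without glutathione. SLC7A11 imports cystine for glutathione synthesis, whose rate is set by the GCLC and GCLM subunits, while NFE2L2 (NRF2) is the transcription factor that turns on this defense under oxidative stress. As *n*-3 and *n*-6 PUFA are both substrates of peroxidation, the comparison of *fat-1* with WT mice asks whether the RNA of these genes differed between cells of differing PUFA supply.

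A pair of sequence features bears on these genes. GPX4 is a selenoprotein, and its messenger is read through a UGA codon as selenocysteine at the active site. The codon lies at chromosome 10, 80054737 to 80054739 (GRCm38, plus strand), in exon 3 of 7 of a *Gpx4* transcript in GENCODE release M21, where it is codon 73. It is shown in capitals (as DNA) within 33 coding bases:

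*Gpx4*: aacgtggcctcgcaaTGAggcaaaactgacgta

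NRF2 binds DNA with a small MAF protein at the antioxidant response element, whose core was searched as TGACNNNGC on both strands from 250 bases before to 50 bases after the annotated start. Promoter sequences were found in RefSeq (GRCm38.p6) for 8 of the 10 genes, so *Hmox1* and *Gclc* were not searched. The core was present in the promoters of *Gclm* and *Nfe2l2*, and in 12.4% of all 32851 promoters of the same length. A second motif, the C/EBP-ATF response element TGATGNAAT bound by ATF4, was in 0 of the 11 promoters of these 8 genes and in 0.965% of all promoters. The antioxidant cores are shown in capitals, in windows that end before the start. For *Gclm*, the window is chr3:122245398-122245456 on the plus strand and the core was read on the opposite strand. For *Nfe2l2*, the window is chr2:75704870-75704913 on the minus strand and the core was read on the strand shown. A match of these letters is a description and not evidence of binding.

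*Gclm*: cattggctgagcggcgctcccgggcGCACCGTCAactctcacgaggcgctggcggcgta

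*Nfe2l2*: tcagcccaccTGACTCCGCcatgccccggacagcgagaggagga

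The counts summed to between 204539059 and 232148824 per sample, so counting error was small for all 10 genes. All 6 samples held RNA of luminal and basal cells, but in unequal amounts. The summed level of the 12 luminal and basal marker genes ranged from 888 to 3811 CPM (counts scaled by the normalized library total) across the *fat-1* pools, compared to 914 to 3015 CPM across the WT pools. RNA of other cells was present as well. The 8 immune markers summed to between 1840 and 3081 CPM and the 5 fibroblast markers to between 1464 and 4839 CPM over the 6 samples. Of all markers, only *Lep*, an adipocyte gene, was at 0 in some samples. In bulk samples such as these, fewer cells of a type and less RNA per cell cannot be told apart.

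No difference between *fat-1* and WT mice was detected for any of the 10 genes. For the locus sums, 0 of the 10 reached a Benjamini–Hochberg adjusted *p*-value of 0.05 in the edgeR quasi-likelihood test, and 0 reached an unadjusted *p*-value of 0.05. Over all 24061 loci tested the corresponding shares were 0% and 1.14%. All 10 genes passed the filter on low counts. The exact test of edgeR and DESeq2 also gave 0 of the 10 by adjusted *p*-value, beside 0.0249% and 0.0332% of all loci. The rows with the gene symbol gave 0 of the 10 under each test. Over all 30683 rows tested, edgeR's quasi-likelihood test gave 0% by adjusted and 2.21% by unadjusted *p*-value, its exact test 0.104% and DESeq2 0.303% by adjusted *p*-value. The groups overlapped for each of the 10 genes in both readings, and they did not overlap at 4.15% of all loci and 5.26% of all rows. The median log2 fold change of the 10 locus sums was 0.04 in *fat-1* relative to WT, beside 0.0018 for all loci, and the median size was 0.06 beside 0.11. The 3 samples of a genotype are separate pools, and the *p*-values measure the spread between these pools.

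The size of difference that the data allow was not the same for all genes. By the 95% interval, *Nfe2l2* was bounded most tightly, between −0.15 and 0.22 on the log2 scale, and *Hmox1* between −0.22 and 0.43. For 8 of the 10 genes the interval lay within a change of 1 on the log2 scale, that is within 2-fold in either direction. The exceptions were *Gclc*, from −1.30 to 2.10, and *Nqo1*, from −0.87 to 1.01, for which a change of 2-fold was not excluded.

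**Figure D1:**
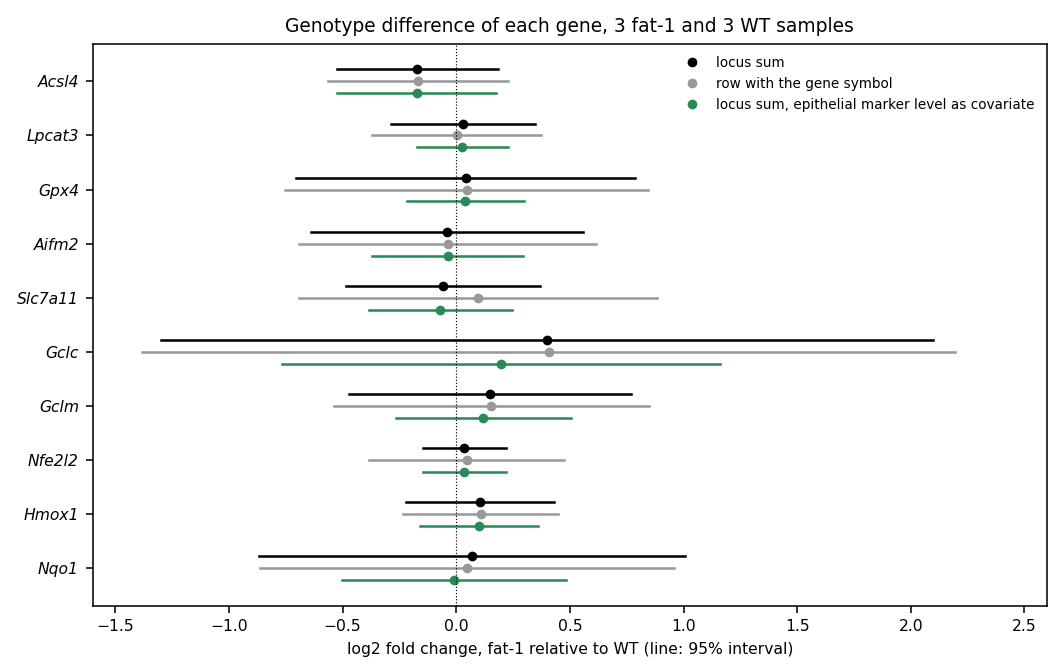
Log2 fold change of each gene in *fat-1* relative to WT mice (x axis), with its 95% interval as a line, for the locus sum (black), the row with the gene symbol (grey) and the locus sum with epithelial marker level as a covariate (green). Every interval includes 0, and that of *Gclc* is the widest.

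In order of RNA level per kilobase of annotated exon, *Hmox1* came first by a wide margin. HMOX1 breaks down heme and releases iron, carbon monoxide and biliverdin. Its mean over the 6 samples was 4419 ± 585 CPM per kilobase (SD, *n* = 6), rank 4 of 21486 protein-coding genes, and it held that rank in each sample. Only the mitochondrial genes *mt-Atp8*, *mt-Nd4l* and *mt-Co1* had higher means, so that *Hmox1* was the most abundant nuclear messenger by this measure, ahead of *B2m* with 2804 CPM per kilobase. The *Hmox1* row took between 0.691% and 0.977% of all counts of a sample.

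*Gclc* followed with 269.9 ± 207 CPM per kilobase (rank 102), then *Nqo1* with 119.7 ± 45.8, *Nfe2l2* with 109 ± 4.81, *Gpx4* with 74.9 ± 22.2 and *Slc7a11* with 74.2 ± 12.1 CPM per kilobase (SD, *n* = 6). Below them stood *Gclm* with 31.6 ± 8.60, *Acsl4* with 25.4 ± 3.54, *Lpcat3* with 13.1 ± 1.33 and *Aifm2* with 1.85 ± 0.375 CPM per kilobase. The *Gclm* level is that of its symbol row alone, because its locus held other symbols, and this row had only 25.3% to 28.4% of the locus counts. Most of the other counts were in a row without a symbol, and whether they are *Gclm* RNA was not tested. If they are, *Gclm* would stand higher in the order. The *Nqo1* level is that of its locus sum, of which the symbol row held only 38.3% to 45.8%. The rest was in a row without a symbol, and whether it is *Nqo1* RNA was not tested. By its symbol row alone *Nqo1* would stand lower in the order. Neighbours in this order whose sample ranges overlapped were *Gclc* and *Nqo1*, *Nqo1* and *Nfe2l2*, *Nfe2l2* and *Gpx4*, *Gpx4* and *Slc7a11*, and *Gclm* and *Acsl4*. *Gpx4* was higher than *Slc7a11* in 2 of the 6 samples, *Nqo1* higher than *Nfe2l2* in 3 and *Gclm* higher than *Acsl4* in 4. The order within these pairs is not settled. The annotated exons of *Slc7a11* add up to 13922 bases, the most of the 10 genes, and a messenger that uses only part of them would have a higher level per kilobase than given here. *Aifm2*, the gene for the defense without glutathione, was the least abundant at rank 9420, while 6 of the 10 genes were among the first 1000, which hold 4.65% of all protein-coding genes.

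**Figure D2:**
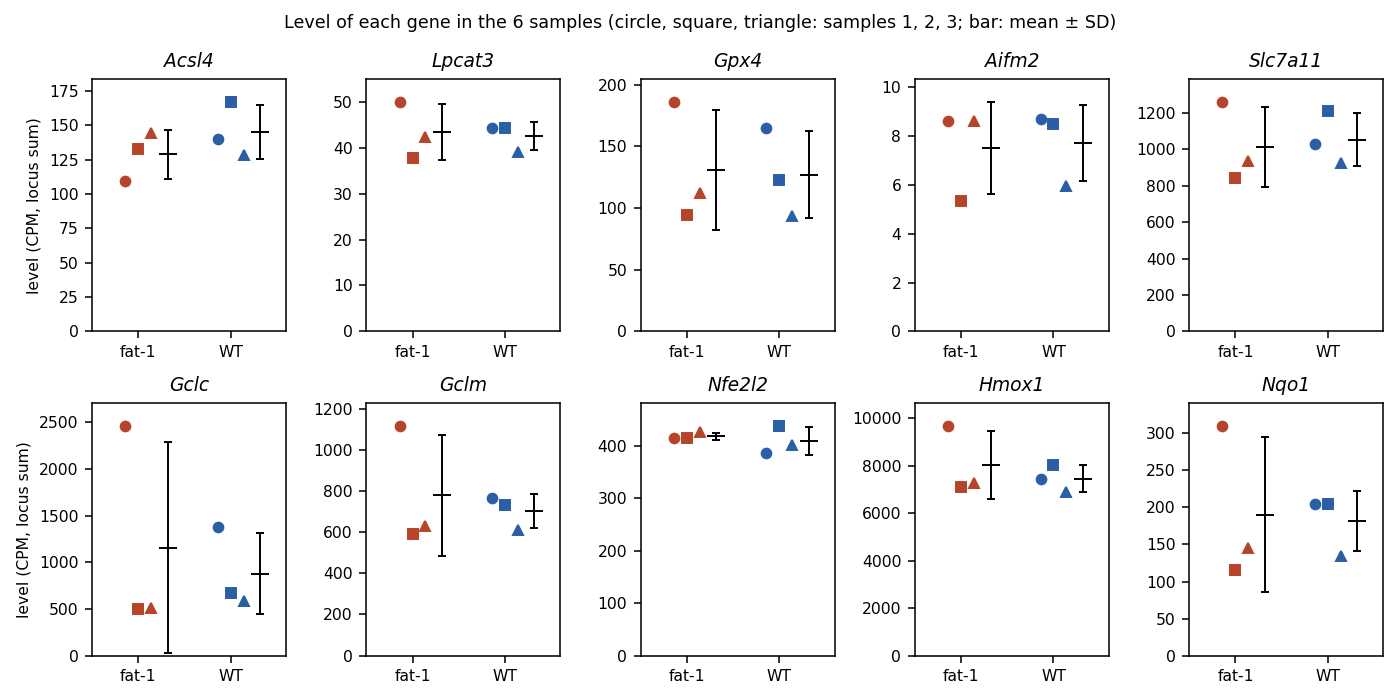
Level of each gene (CPM of the locus sum, y axis from 0) in the 3 *fat-1* samples (red) and the 3 WT samples (blue), with circles, squares and triangles for samples 1, 2 and 3 and a bar for mean ± SD. The genotypes overlap in every panel, and *fat-1* sample 1 is the highest for *Gclc*, *Gclm*, *Hmox1* and *Nqo1*, among others.

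*Acsl4* and *Lpcat3* supply the substrate of lipid peroxidation. ACSL4 activates arachidonic and other long-chain PUFA with coenzyme A. *Acsl4* (chromosome X, 142317993 to 142390535, GRCm38) had 109, 133 and 144 CPM in pools 1 to 3 of *fat-1*, compared to 140.2, 167 and 128 CPM in pools 1 to 3 of WT. Its log2 fold change of −0.17 (standard error, SE, 0.15, unadjusted *p* = 0.284 by edgeR) was the most negative of the 10 genes. The genotypes overlapped, since WT sample 3 lay below *fat-1* samples 2 and 3. LPCAT3 then esterifies the activated fatty acid into a lysophospholipid. *Lpcat3* (chromosome 6, 124663027 to 124704418) had 49.9, 37.8 and 42.4 CPM across the *fat-1* pools, compared to 44.3, 44.2 and 39.0 CPM across the WT pools, with a log2 fold change of 0.03 (SE 0.13). Its annotated exons share 334 bases with *Emg1* on the other strand, and whether strand was used in counting is not given in the sources used here.

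*Gpx4* and *Aifm2* remove lipid peroxides or the radicals that spread them. *Gpx4* (chromosome 10, 80047166 to 80056439) had 186, 94.2 and 112 CPM across the *fat-1* pools, compared to 165, 123 and 94.0 CPM across the WT pools. Sample 1 was the highest in both genotypes, and the lowest values of the genotypes were nearly equal. The log2 fold change was 0.04 (SE 0.31). *Aifm2* (chromosome 10, 61715263 to 61739260) had 8.60, 5.34 and 8.61 CPM across the *fat-1* pools, compared to 8.72, 8.51 and 5.94 CPM across the WT pools, with a log2 fold change of −0.04 (SE 0.25). Here a single sample of each genotype was low, *fat-1* sample 2 and WT sample 3. *Aifm2* shares 233 exonic bases with *H2afy2* on the other strand. The ratio of *Acsl4* to *Gpx4*, which does not depend on normalization, was 0.587, 1.41 and 1.28 across the *fat-1* pools, compared to 0.851, 1.36 and 1.36 across the WT pools, with a two-sided exact permutation *p*-value of 0.7. The smallest *p*-value that 3 against 3 samples allow is 0.1.

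*Slc7a11*, *Gclc* and *Gclm* serve cystine uptake and glutathione synthesis. *Slc7a11* (chromosome 3, 49892526 to 50443614) had 1260.3, 839.7 and 935 CPM across the *fat-1* pools, compared to 1028, 1209 and 923 CPM across the WT pools, with a log2 fold change of −0.06 (SE 0.18). *Gclc* (chromosome 9, 77754535 to 77794485), which encodes the catalytic subunit of glutamate cysteine ligase, had 2459.5 CPM in *fat-1* sample 1 but 501 and 509 CPM in *fat-1* samples 2 and 3. The WT pools had 1373, 668 and 587 CPM. The highest *Gclc* level was 4.91 times the lowest, and only 1.91% of the 11223 loci with a mean of at least 5 CPM had a larger ratio. Its log2 fold change of 0.40 (SE 0.70) was the largest of the 10 genes and the least certain. Without *fat-1* sample 1 it was −0.78.

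*Gclm* (chromosome 3, 122245557 to 122270732), the modifier subunit, had 1118, 591 and 630.2 CPM across the *fat-1* pools, compared to 767, 732 and 609 CPM across the WT pools, a log2 fold change of 0.15 (SE 0.26). The *Gclm* locus also held small rows of *Dnttip2* and the pseudogene *Gm6061*, which overlaps *Gclm* on the same strand. The annotated exons of *Gclm* share 296 bases with *Gm17494* on the other strand. By locus sums, the ratio of *Gclc* to *Gclm* was 2.20 in *fat-1* sample 1 and 1.79 in WT sample 1, against 0.808 to 0.964 in the other samples. Both genotypes thus held a sample with a high ratio, and no difference between them was detected (two-sided exact permutation *p* = 1). The *Gclm* symbol row had 154 to 298 CPM and was below *Gclc* in every sample. Which of these genes was higher therefore depended on the reading.

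*Nfe2l2*, *Hmox1* and *Nqo1* are NRF2 itself and a pair of its best known targets. *Nfe2l2* (chromosome 2, 75675513 to 75704641) had 415, 416 and 427 CPM across the *fat-1* pools, compared to 387, 439 and 401 CPM across the WT pools, a log2 fold change of 0.04 (SE 0.08). It was the steadiest of the 10 genes, with the highest level 1.13 times the lowest, and 88.6% of the loci with a mean of at least 5 CPM varied more. *Hmox1* (chromosome 8, 75093621 to 75100589) had 9670.2, 7114 and 7279 CPM across the *fat-1* pools, compared to 7447, 8044 and 6878 CPM across the WT pools. Its high level was thus common to all 6 samples, and the log2 fold change was 0.11 (SE 0.13). *Nqo1* (chromosome 8, 107388225 to 107403206), a quinone reductase, had 310.0, 115 and 146 CPM across the *fat-1* pools, compared to 205, 205 and 135 CPM across the WT pools, a log2 fold change of 0.07 (SE 0.39). For *Nqo1*, only *fat-1* sample 1 exceeded the WT range, while *fat-1* sample 2 lay below it.

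For most genes the sign of these small differences changed when a single sample was left out, but *Acsl4* kept a negative value each time. With all samples, 7 of the 10 genes had a positive log2 fold change. Without *fat-1* sample 1, 1 gene had a positive and 9 had a negative value, without *fat-1* sample 2 or without WT sample 2, 9 were positive and 1 was negative, and without WT sample 3, 4 were positive and 6 were negative.

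The levels were also set against the epithelial marker level of each sample, across both genotypes. The mean log2(CPM + 1) of the luminal and basal markers was 6.82, 4.92 and 6.00 in pools 1 to 3 of *fat-1* and 6.88, 6.00 and 4.95 in pools 1 to 3 of WT, so that the samples lay in 3 pairs with 1 sample of each genotype in a pair. Over the 6 samples, 8 of the 10 genes had a positive Pearson's r with this mean, between 0.676 and 0.957. Over all loci tested, 50.2% had a positive r and the median was 0.0041. For *Gpx4*, r was 0.957 (exact permutation *p* = 0.0194, adjusted *p* = 0.0648 over 10 relations) and Spearman's rho was 0.886 (exact permutation *p* = 0.0333, adjusted *p* = 0.0667). When the 2 samples most distant from the median were left out, *fat-1* sample 2 and WT sample 3, r for *Gpx4* was 0.953. For *Nqo1*, r was 0.860 (exact permutation *p* = 0.0347, adjusted *p* = 0.0694) and rho was 0.943 (exact permutation *p* = 0.0167, adjusted *p* = 0.0556), with r at 0.676 without those samples. For *Slc7a11* r went from 0.719 to 0.250 and for *Hmox1* from 0.676 to 0.421 without them, so these relations rested on those samples, and *Acsl4* and *Nfe2l2* then had r of −0.712 and −0.850. The other 4 genes had r between 0.640 and 0.911 without them.

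None of the 10 relations passed the adjusted threshold, and 5 passed the unadjusted one in exact permutation tests of r. Over all 24061 loci, 26.7% passed the unadjusted threshold in the same test, and 29.8% had an r of at least 0.8 in either direction, as did 5 of the 10 genes. *Acsl4* and *Nfe2l2* stood apart from the rest, with r of −0.109 and −0.165 (exact permutation *p* = 0.828 and 0.736). *Gclc* had the steepest slope along the marker level, 0.88 on the log2 scale for each unit of the marker mean, compared to 0.46 for *Gpx4* and −0.01 for *Nfe2l2*. The immune marker mean ran opposite to the epithelial mean (r = −0.977 as a description), as did the mean of the endothelial markers (r = −0.938). Among the immune markers, *Cd68* did not, with 860 CPM in *fat-1* sample 1 and 667 CPM in *fat-1* sample 2. Set against the immune marker mean instead, r was negative for the same 8 of the 10 genes, from −0.965 for *Gpx4* to −0.739 for *Hmox1*. By that measure 4 of the 10 relations passed the adjusted threshold of 0.05 in exact permutation tests, namely *Gpx4*, *Lpcat3*, *Gclm* and *Nqo1* (each adjusted *p* = 0.0312). Unadjusted, 6 of the 10 genes and 28.9% of all loci passed with the immune markers, so relations that pass this threshold were common over all loci. The genes and the markers were read from the same 6 libraries, and the part of cell composition in these levels was not tested.

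**Figure D3:**
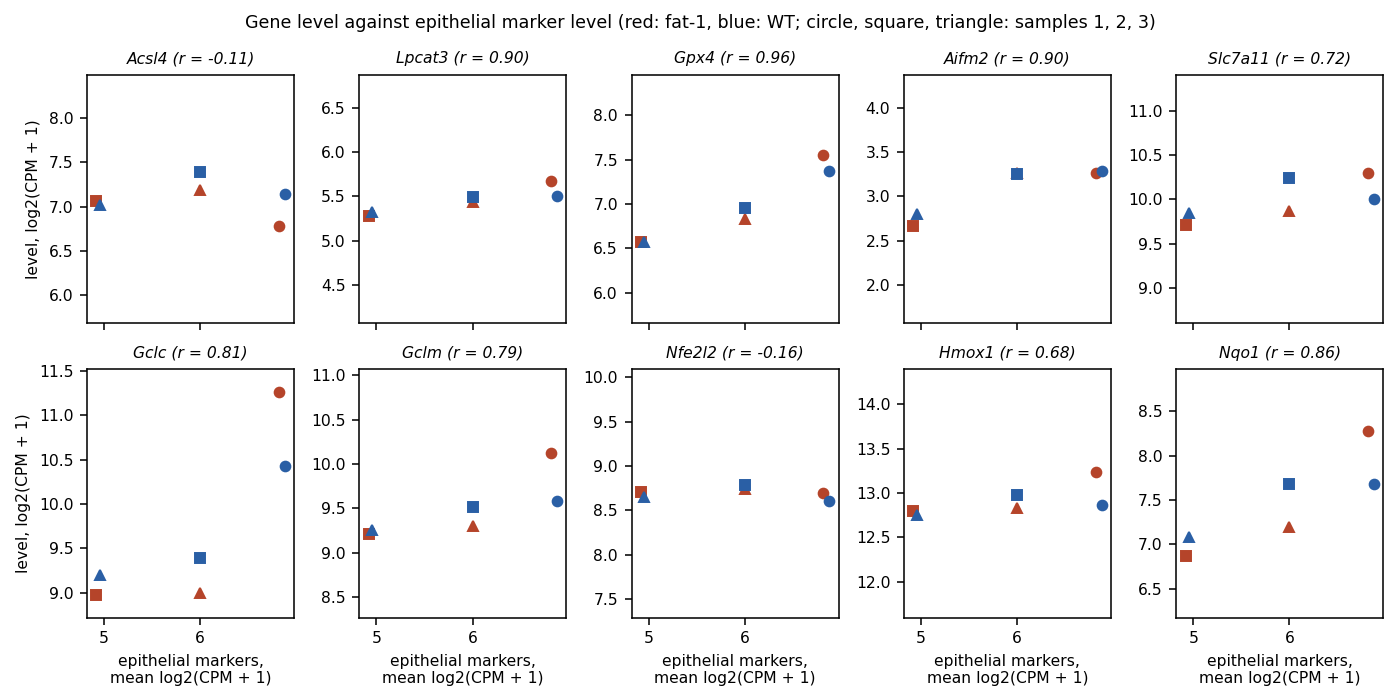
Level of each gene, log2(CPM + 1) of the locus sum (y axis, the same span in each panel), against the mean log2(CPM + 1) of 12 luminal and basal markers (x axis) in the 3 *fat-1* (red) and 3 WT (blue) samples. *Gclc* and *Gpx4* are highest at the right in both genotypes, and *Nfe2l2* and *Acsl4* are not.

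With the epithelial marker mean added to the model as a covariate, the standard error of the genotype difference was smaller for all 10 locus sums. The change was slight for *Nfe2l2* (0.0752 to 0.0751) and *Acsl4* (0.146 to 0.144), and the share over all loci is not given here. The standard error of *Gpx4* went from 0.31 to 0.11, with a log2 fold change of 0.04 and a 95% interval from −0.22 to 0.30. That of *Gclc* went from 0.70 to 0.40, and its log2 fold change from 0.40 to 0.20. The adjusted *p*-value was 1.00 for each of the 10 genes by the quasi-likelihood test of edgeR in this model too, so this model also called 0 of the 10 genes.

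As a description over the same 6 samples, *Nqo1* and *Lpcat3* were the most alike (r = 0.976), followed by *Gclm* with *Nqo1* (r = 0.966), *Hmox1* with *Gclm* (r = 0.955) and *Gclc* with *Gclm* (r = 0.948). The gene most like *Acsl4* was *Nfe2l2* at r = 0.416, and that most unlike it was *Gclc* at r = −0.581. These values come from shared libraries.

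For 5 of the 10 genes the counts were split over more than 1 row. The largest split difference was in *Slc7a11*, whose symbol row held 77.8%, 88.9% and 89.9% of the locus across the *fat-1* pools, compared to 87.5%, 87.6% and 48.5% across the WT pools. In WT sample 3 the symbol row alone had 447 CPM, against 748 to 1061 CPM in the other samples, whereas the locus sum of 923 CPM was within their range. The symbol row thus gave *Slc7a11* a log2 fold change of 0.10 (SE 0.32) and the locus sum −0.06 (SE 0.18). *Nfe2l2* was split differently in every sample, from 44.4% in WT sample 2 to 70.7% in WT sample 1, while its sum was the steadiest of all. For *Gclm* the symbol row held 26.9% ± 0.446 (SD, *n* = 3) of the locus across the *fat-1* pools, compared to 26.7% ± 1.59 across the WT pools. The shares of the 5 genes had two-sided exact permutation *p*-values between 0.5 and 1.

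**Figure D4:**
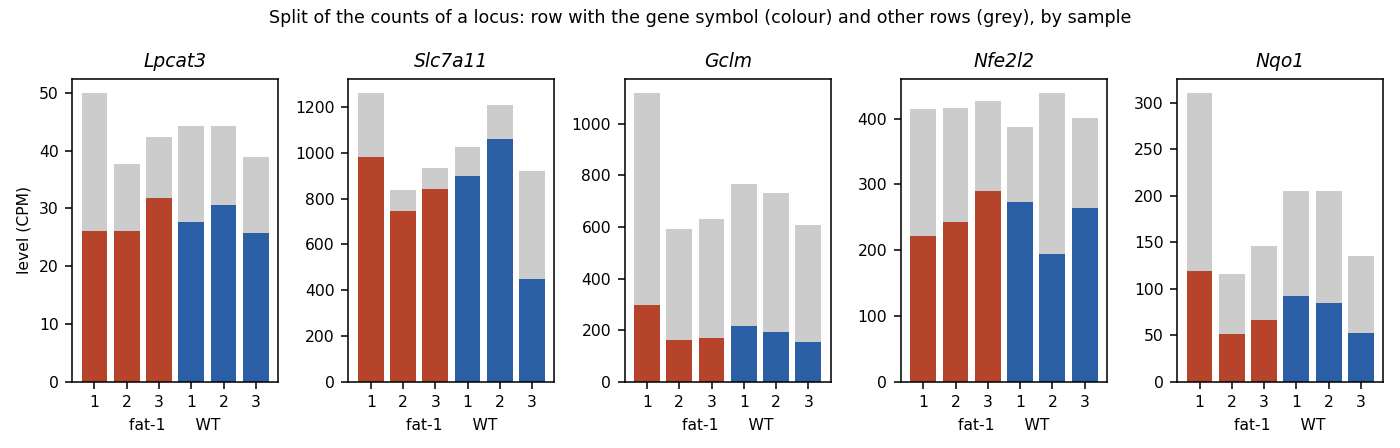
Level in CPM (y axis, from 0) of the row with the gene symbol (red for *fat-1*, blue for WT) and of the other rows of the locus (grey) for the 5 genes with more than 1 row, in samples 1 to 3 of each genotype. The *Slc7a11* row of WT sample 3 is low while the whole bar is not.

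Beyond the 10 genes, 105 other genes of these pathways were placed in 8 lists, and all 105 were tested. Again 0 of the 105 reached 0.05 in edgeR's quasi-likelihood test on locus sums, adjusted or unadjusted, beside 0% and 1.14% of all loci. Some of these loci also held other symbols, among them those of *Gpx1* (with *Rhoa*) and *Mafg* (with *Pycr1* and *Sirt7*). Such a sum is not a reading of the listed gene alone. The *Gpx1* row had 2.96 to 9.65 CPM, and its locus sum 448 to 555 CPM. In the same test on rows with the gene symbol, 0 of the 105 passed by adjusted and 3 by unadjusted *p*-value, beside 0% and 2.21% of all rows. DESeq2 gave 0.303% of all rows by adjusted *p*-value, and its calls among the 105 rows are not given here. *Dhcr7*, which makes cholesterol from 7-dehydrocholesterol, had 6.98, 6.03 and 0.273 CPM in its row for *fat-1* and 0.466, 0.128 and 0.116 CPM for WT (log2 fold change 4.22, SE 1.26, unadjusted *p* = 0.0161 by edgeR). Its locus sum was 0.05 on that scale. The paper lists *Dhcr7* among its DESeq2 genes with an adjusted *p*-value of at most 0.05. Its log2 fold change there is negative and nearly the same in size as that of the row here, with the opposite sign. The rows of *Agpat3*, an acyltransferase, and *Ddit3*, a stress-induced transcription factor, had log2 fold changes of −1.25 (unadjusted *p* = 0.00631) and −0.69 (unadjusted *p* = 0.0267), and their locus sums had 0.02 and 0.13. The *Agpat3* row had 20.9, 17.0 and 17.6 CPM in the *fat-1* pools and 26.3, 55.1 and 50.5 CPM across the WT pools. Its locus also held *Trappc10* and other symbols, so that sum is not a reading of *Agpat3* alone. For the locus sums, the median log2 fold change was 0.01 over all 105 genes and lay between −0.03 and 0.06 in the 8 lists. The *fat-1* and WT samples did not overlap for 2 genes, beside 4.15% of all loci. One was *Mafk*, a small MAF partner of NRF2, with 229 ± 1.57 CPM in the *fat-1* pools and 216 ± 10.9 CPM across the WT pools (SD, *n* = 3). The other was *Pdss2*, which helps to build the side chain of coenzyme Q, with 4.61, 4.19 and 4.82 CPM in the *fat-1* pools and 5.53, 5.42 and 4.90 CPM across the WT pools. The *Pdss2* locus also held the gene model *Gm47856*. Their unadjusted *p*-values by edgeR were 0.292 and 0.144, the latter the smallest of the 105.

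Most of the listed targets of NRF2 were abundant. Of the 12 genes listed as other targets, 11 were among the 1000 protein-coding genes with the highest mean level per kilobase over the 6 samples. The exception was *Me1* at rank 1294. This list is not complete, and genes placed in other lists are not counted in it. In the glutathione list 7 of 19 genes were among the first 1000, and in the iron list 3 of 14. The peroxidase *Prdx1* had 927 ± 137 CPM per kilobase (SD, *n* = 6) and *Srxn1*, which repairs oxidised peroxiredoxins, had 636 ± 106. For neither was a difference between genotypes detected, with log2 fold changes of −0.08 (SE 0.16) and −0.15 (SE 0.17). *Osgin1*, an oxidative stress inducible gene, had the largest log2 fold change of the 12 other targets at 0.29 (SE 0.27). It had 192 CPM in *fat-1* sample 1 and 95.8 to 115 CPM in the other 5 samples. Among the 8 genes that control NRF2, *Sqstm1*, an autophagy receptor that binds KEAP1 and is itself a target, was the highest at 1375 ± 86.5 CPM per kilobase. *Keap1*, which marks NRF2 for degradation, had a log2 fold change of 0.08 (SE 0.10).

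In the iron list, the ferritin light chain *Ftl1* had 2311 ± 238 CPM per kilobase (SD, *n* = 6; rank 7) and the heavy chain *Fth1* ranked 15. Ferritin stores iron, including that freed from heme. The log2 fold change was −0.08 (SE 0.11) for *Ftl1* and 0.06 (SE 0.25) for *Fth1*. *Fth1* and *Ftl1* have annotated pseudogenes elsewhere in the genome, so their counts are uncertain. The zinc and iron importers *Slc39a8* and *Slc39a14* had the smallest *p*-values of the list (0.323 and 0.487).

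In the glutathione list, *Slc3a2*, the heavy chain that pairs with SLC7A11 at the cell surface, was the highest at 383 ± 14.1 CPM per kilobase (SD, *n* = 6). It was nearly constant, with 1353 ± 16.1 CPM in the *fat-1* pools and 1353 ± 76.9 CPM across the WT pools (SD, *n* = 3). The 2 smallest *p*-values of the 19 genes belonged to *Chac1*, which degrades glutathione (log2 fold change −0.12, SE 0.10), and *Glrx*, a glutaredoxin (−0.20, SE 0.18). In the list of PUFA activation, remodelling and peroxidation, *Pebp1* was the highest at 70.6 ± 10.5 CPM per kilobase. The smallest *p*-values were those of *Lpcat2* (0.346) and *Alox12* (0.431). The lipoxygenase *Alox12* had only 1.29 to 4.04 CPM in the *fat-1* pools and 1.79 to 5.56 CPM across the WT pools. *Alox12b* had the most negative log2 fold change of all 105 genes, −0.85 (SE 1.24), at levels of 0.165 CPM or less, where it was at 0 in a sample of each genotype.

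The radical trapping list was led by *Prdx6*, with 214 ± 48.0 CPM per kilobase (SD, *n* = 6), and its smallest *p*-values were those of *Pdss2* and of *Coq2* (log2 fold change 0.12, SE 0.10), another gene of coenzyme Q synthesis. Among the 9 genes of selenoprotein synthesis and selenium supply, 0 were in the first 1000, and the highest was *Selenop*, which carries selenium in plasma, at 22.3 ± 6.07 CPM per kilobase. *Lrp8*, a receptor for selenoprotein P, and *Pstk*, a kinase of selenocysteine synthesis, had the smallest *p*-values (0.370 and 0.449). In the ATF4 list, which also bears on *Slc7a11*, *Atf4* was the highest at 111 ± 29.0 CPM per kilobase, and *Ddit4* (0.21, SE 0.20) and *Atf3* (−0.06, SE 0.09) had the smallest *p*-values. *Atf4* is given per kilobase from its symbol row, because its locus also held *Mief1*.

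**Figure D5:**
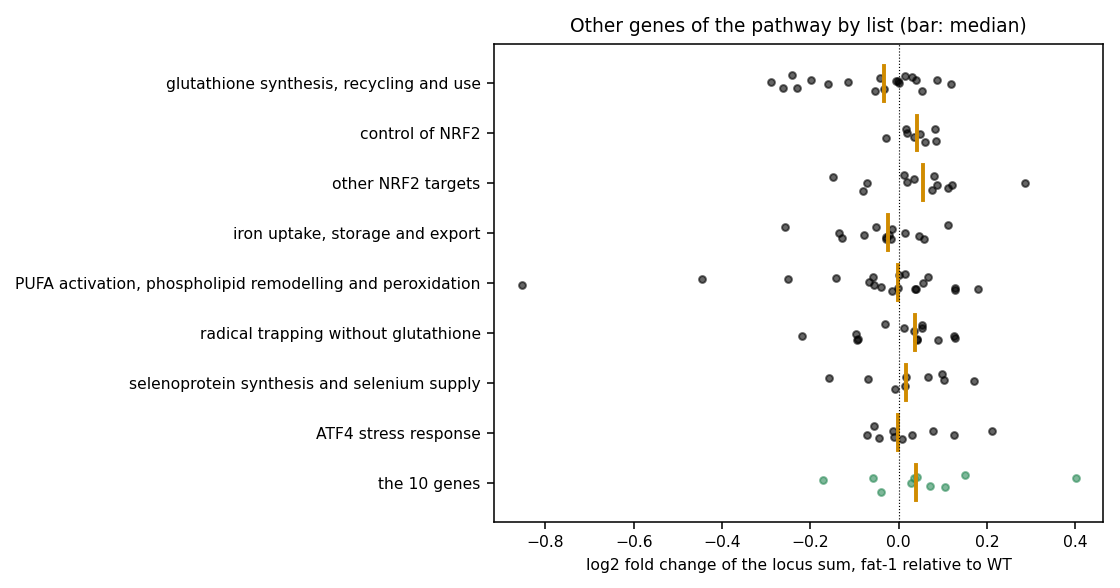
Log2 fold change of the locus sum in *fat-1* relative to WT mice (x axis) for each of 105 pathway genes in 8 lists (black points) and for the 10 genes (green), with the median of each list as a bar. The medians lie between −0.03 and 0.06, and the point farthest to the left is *Alox12b*, which had few counts.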

How the data were processed

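Paired-end reads were aligned by the authors with HISAT2 (genome GRCm38) and passed to StringTie for assembly and quantification. The deposited matrix holds estimated counts, not normalized. Tool versions, the annotation, the strand setting and the step from coverage to counts are not given in the sources used here. All values were whole numbers, so rounding to whole numbers changed nothing. Genotype and replicate number came from the sample labels. Rows sharing a locus number were summed (53912 loci).

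Rows and locus sums were each fitted whole by edgeR 4.0.16 (R 4.3.3), using its quasi-likelihood test (genotype as the only term, filterByExpr, TMM, Benjamini–Hochberg, threshold 0.05), with DESeq2 1.42.0 and edgeR's exact test as alternatives. The test was checked on simulated counts. The standard error was computed from the log2 fold change and the F statistic of the fit. The 95% intervals use it with the t quantile at the total degrees of freedom, which include a part shared over all loci or rows. A level per kilobase is CPM over the annotated exonic bases (GENCODE M21, GRCm38). It uses the locus sum, or the symbol row where a locus held several symbols. Exact permutation tests were two-sided and used log2(CPM + 1) for levels. Intervals cover the spread between samples.

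The 10 genes and all lists were chosen with earlier results of these data known. All 10 are named, and of each list the gene with the highest level per kilobase and the 2 with the smallest *p*-value. *Me1*, *Fth1*, *Alox12b*, *Dhcr7*, *Agpat3*, *Ddit3*, *B2m* and the mitochondrial genes were named after their values were seen. Python 3.11.15 with scipy 1.17.1 and matplotlib 3.10.9 was used for permutation tests and plots.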

Additional observations from a re-analysis of the deposited data

How the results depend on the processing

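The count of the 10 genes past the adjusted threshold was 0 for locus sums and for symbol rows under each of 13 alternatives. That of the 105 pathway genes was also 0 for locus sums, their only reading taken through these alternatives. These were other size factors, no filter, the older quasi-likelihood fit, the exact test, DESeq2, the replicate block, the epithelial covariate and leaving out each of 6 samples. Adjusted calls were rare over all loci too, with 8 under DESeq2, 6 under the exact test, 1 without WT sample 1 and 0 otherwise. Over all rows they were 93, 32 and 2 in these settings, 1 without *fat-1* sample 1, 1 without *fat-1* sample 2 and 0 otherwise. A count of 0 among 10 or 105 genes was therefore likely in any setting and says little about these genes. Over all loci the unadjusted count was 274, and it was 579 of 36672 without the filter, 556 with the covariate, 542 without WT sample 3 and 482 without *fat-1* sample 1. With 3 pools a genotype, *Gclc* and *Nqo1* had the widest intervals.

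Same-numbered samples deviated together with r = 0.80, −0.16 and 0.13 over 24061 loci, so the numbers were not taken to pair the samples. Not every sample correlated best with its own number. The replicate block gave 0 adjusted and 376 unadjusted calls over loci, and log2 fold changes of −0.0343 for *Nqo1* (locus sum) and −0.00040 for *Lpcat3* (symbol row), both reversed. It also moved *Gclc* (locus sum) from 0.40 to 0.0691, and the covariate moved it to 0.20. The covariate gave −0.0100 for *Nqo1*. With only rows that carry a symbol as denominator, the *Gclm* share differed by −0.215 points. Relations past the adjusted threshold numbered 0, but 4 against immune markers, 1 with CPM on plain totals and 1 with symbol rows. The causes were not tested.

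Leaving out each sample in turn, the log2 fold change of the locus sum ranged from −0.26 to −0.0553 for *Acsl4*, −0.0751 to 0.12 for *Lpcat3*, −0.29 to 0.27 for *Gpx4*, −0.19 to 0.15 for *Aifm2*, −0.24 to 0.0589 for *Slc7a11*, −0.78 to 0.88 for *Gclc*, −0.19 to 0.31 for *Gclm*, −0.00049 to 0.0888 for *Nfe2l2*, −0.0409 to 0.18 for *Hmox1* and −0.46 to 0.33 for *Nqo1*. That of the symbol row ranged from −0.26 to −0.0552 for *Acsl4*, −0.0985 to 0.0728 for *Lpcat3*, −0.29 to 0.27 for *Gpx4*, −0.20 to 0.16 for *Aifm2*, −0.19 to 0.35 for *Slc7a11*, −0.78 to 0.89 for *Gclc*, −0.18 to 0.31 for *Gclm*, −0.0934 to 0.14 for *Nfe2l2*, −0.0429 to 0.19 for *Hmox1* and −0.36 to 0.28 for *Nqo1*. The difference in symbol row share, in points, ranged from −5.26 to 6.18 for *Lpcat3*, −2.05 to 17.5 for *Slc7a11*, −0.50 to 1.06 for *Gclm*, −8.29 to 4.88 for *Nfe2l2* and −0.38 to 3.37 for *Nqo1*. The log2 ratio difference ranged from −0.42 to 0.21 for *Acsl4* to *Gpx4* and from −0.49 to 0.29 for *Gclc* to *Gclm*. The r with epithelial markers ranged from −0.27 to 0.49 for *Acsl4* and from −0.45 to 0.42 for *Nfe2l2*. The other 8 genes kept a positive r.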

Other observations

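Among the 105 pathway genes, those whose levels were most like *Gpx4* over the 6 samples were *Gstm1* (r = 0.985), *Mboat1* (r = 0.983) and *Oplah* (r = 0.978). Those most like *Slc7a11* were *Vkorc1l1* (r = 0.968), *Ftl1* (r = 0.942) and *Blvrb* (r = 0.930). These are descriptions over 6 libraries that are shared by all genes and differ in epithelial marker level.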
